A study of Mus musculus with 68 samples.

Results

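Tspo2 and Tspo are the 2 translocator protein genes of the mouse. They were taken by their symbols from 2 tables of read counts per gene for bone marrow erythroid cells, so that 2 of 24059 gene rows are described here across all 68 libraries. They had been chosen by their levels in these same libraries, across gates and genotypes, so their levels and fold changes are given as a description, with no test. The stage series (38 libraries) holds flow-sorted gates of rising maturity, BFU-E (3 libraries) and CFU-E (5), which are erythroid progenitors, then ERY-I (7, source name ProE), ERY-II (4, BasoE), ERY-III (4, PolyE), ERY-IV (4, OrthoE), ERY-V (7, Retic) and ERY-VI (4, RBC). The knockout series (30 libraries) holds 3 GS-KO and 3 WT libraries in each of 5 gates, namely BFU-E, CFU-E, ERY-I-II (ProE/BasoE), ERY-III-VI (PolyE/OrthoE) and ERY-V-VI (Retic/RBC). The labels name no treatment. The labels do not spell out GS. The allele, any promoter or Cre that drives the deletion, the strain, the age and the number of mice are not stated in the labels. Nothing says that libraries of 1 group came from separate mice, so every SD and adjusted p below measures only how the libraries varied, and that variation may be technical.

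TSPO is a protein of the outer mitochondrial membrane that binds cholesterol and porphyrins, the ring molecules from which heme is made. Its best known natural ligand is the acyl-CoA binding protein Dbi, and it is found beside the voltage-dependent anion channels, the pores of the same membrane. Tspo2 is its erythroid paralog, which binds cholesterol and in mouse has been tied to the maturation of erythroblasts. Heme synthesis starts with Alas2 in the erythroid mitochondrion, leaves it, and returns to it for its last steps, which end with Fech.

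The last 240 coding bases of both genes are shown because reads of 2 paralogs could be confused in counting, and the capitals mark the longest run of bases that the 2 coding sequences share. They are written in the direction of transcription and end with the stop codon, from the GENCODE M21 annotation of GRCm38, the build that mm10 also names.
Tspo2, coding bases 250 to 489: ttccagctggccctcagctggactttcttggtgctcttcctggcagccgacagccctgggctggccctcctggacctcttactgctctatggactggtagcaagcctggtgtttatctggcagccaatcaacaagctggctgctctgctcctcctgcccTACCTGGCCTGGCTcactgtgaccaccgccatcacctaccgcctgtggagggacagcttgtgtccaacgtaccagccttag
Tspo, coding bases 271 to 510: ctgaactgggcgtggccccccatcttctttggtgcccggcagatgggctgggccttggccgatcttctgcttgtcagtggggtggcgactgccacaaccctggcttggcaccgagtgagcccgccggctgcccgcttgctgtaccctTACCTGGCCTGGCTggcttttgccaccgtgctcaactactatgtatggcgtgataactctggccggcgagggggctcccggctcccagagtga
Tspo2 lies on the minus strand at chr17:48448435-48451522 (transcript Tspo2-201, 5 exons, 956 bases, of which 489 are coding). Its exons 1 and 2 are untranslated. Tspo lies on the plus strand at chr15:83563592-83574203 (transcript Tspo-201, 4 exons, 837 bases, of which 510 are coding), and its exon 1 is untranslated. The 2 coding sequences were identical in 55.2% of 542 aligned columns. Their longest shared run was 14 bases, TACCTGGCCTGGCT, and the 2 transcripts had 0 words of 25 bases in common. Mcat-204, a processed transcript of the other strand, overlaps the start of Tspo. The kit named in the labels keeps strand, but which strand setting was counted with is not given in the sources used here, so reads of Tspo and of this transcript may not be told apart.

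The 229 bases just before the start of Tspo2 are shown because its level differed between gates and between genotypes. They are RefSeq sequence of GRCm38.p6, minus strand, chr17:48451523-48451751.
Before Tspo2: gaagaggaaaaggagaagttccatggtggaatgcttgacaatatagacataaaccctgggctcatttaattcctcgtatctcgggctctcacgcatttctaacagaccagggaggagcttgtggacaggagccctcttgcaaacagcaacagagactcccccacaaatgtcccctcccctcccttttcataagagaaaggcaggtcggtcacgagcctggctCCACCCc
The capitals mark CCACCC, the core letters of CACCC boxes, the kind of site bound by the erythroid factor Klf1. The window was searched on both strands for CCACCC and for GATAA, core letters of sites for GATA factors. CCACCC occurred 1 time, with its first letter 7 bases before the transcript start, and 25.9% of 32851 mouse promoter windows of this length hold it. GATAA occurred 0 times, and 21.4% of the windows hold it. The motifs overlap no other match here, and a match of letters is not a measured binding site.

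A stage library held 1630863 to 11472763 counts in total, and a knockout-series library 3131142 to 15806844. Levels are counts per 1000000 of a library's total (CPM). The stage libraries fall into 2 sets, 26 with Xist and 12 with transcripts of Y-linked genes, which are all BFU-E libraries and replicates 1 to 3 of ERY-V, ERY-I and CFU-E, and all 30 knockout libraries are of the Y-linked kind. The 10 erythroid marker genes were found in every group. Their summed level ran from 1414 to 1528 CPM in BFU-E and from 476740 to 574101 CPM in ERY-VI. The median gene's spread within a group was taken as chi-square per degree of freedom, with 1 for counting error alone. It lay between 0.88 and 3.91 in the 10 knockout-series groups. Of the Y-linked triplicates of the stage series, ERY-V had 5.91, ERY-I 1.87, CFU-E 1.01 and BFU-E 1.78, and the Xist libraries of CFU-E, ERY-I and ERY-V had 4.29 to 25.9.

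Tspo2 was present in every gate, lowest in the progenitors and highest in the erythroblast gates in CPM. Its level was 62.1, 54.8 and 53.9 CPM in BFU-E and 45.1, 35.4, 41.2, 114 and 108 CPM in CFU-E. In ERY-I it ran from 51.6 through a median of 84.4 to 150 CPM. The CFU-E and ERY-I libraries thus fell on both sides of BFU-E, with the Xist libraries above the others in both gates. ERY-II had 227, 202, 251 and 290 CPM, ERY-III 263, 186, 236 and 240 CPM, and ERY-IV 293, 282, 330 and 312 CPM. All 12 of these libraries were above the highest of ERY-I. ERY-V ran from 142 through 216 to 249 CPM, below all 4 ERY-IV libraries, and ERY-VI had 53.9, 57.7, 188 and 151 CPM. In CPM the ERY-VI libraries thus split into a pair near the progenitor level and a pair inside the range of ERY-V. Without globin genes in the totals the first pair had 186 and 135 CPM, above every BFU-E and CFU-E library. The other pair then had 586 and 376 CPM, where ERY-V ran from 171 to 549 CPM.

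BFU-E had a mean of 56.9 ± 4.47 CPM of Tspo2 (SD, n = 3), CFU-E of 68.6 ± 38.6 (n = 5), ERY-I of 90.7 ± 38.6 (n = 7) and ERY-II of 242 ± 37.5 (n = 4). The mean was 231 ± 32.6 CPM for ERY-III, 304 ± 21.1 for ERY-IV and 113 ± 67.5 for ERY-VI (n = 4 each), and 201 ± 41.3 for ERY-V (n = 7). From high to low the order was ERY-IV, ERY-II, ERY-III, ERY-V, ERY-VI, ERY-I, CFU-E and BFU-E. The ranges of all 7 pairs of neighbours in this order overlapped, so none of these steps is larger than the spread between libraries.

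Tspo followed a narrower course, with its high level in ERY-II to ERY-IV and little left in the last 2 gates. Its level was 27.8, 27.2 and 20.9 CPM in BFU-E and 23.2, 23.3, 22.5, 95.7 and 64.8 CPM in CFU-E. In ERY-I it ran from 32.4 through 90.3 to 165 CPM. As with Tspo2, the Xist libraries of CFU-E and ERY-I were above the Y-linked ones. ERY-II had 118, 140, 243 and 230 CPM, ERY-III 235, 178, 232 and 277 CPM, and ERY-IV 148, 121, 188 and 282 CPM. These 3 gates overlapped with each other. ERY-V ran from 9.42 through 36.2 to 93.6 CPM, and all 7 libraries were below the lowest of ERY-IV. ERY-VI held 0, 1, 26 and 57 counts, or 0, 0.473, 14.6 and 35.0 CPM. The floor of 3 counts was 0.883 CPM in the first of these libraries and 1.42 CPM in the second, so both were below it.

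For Tspo BFU-E had a mean of 25.3 ± 3.81 CPM (SD, n = 3), CFU-E of 45.9 ± 33.2 (n = 5), ERY-I of 90.4 ± 55.3 (n = 7) and ERY-II of 183 ± 62.9 (n = 4). The mean was 231 ± 40.5 CPM for ERY-III, 185 ± 70.1 for ERY-IV and 12.5 ± 16.4 for ERY-VI (n = 4 each), and 36.4 ± 29.5 for ERY-V (n = 7). In these CPM means the order from high to low was ERY-III, ERY-IV, ERY-II, ERY-I, CFU-E, ERY-V, BFU-E and ERY-VI, and all 7 neighbouring pairs overlapped. Within ERY-V the Y-linked triplicate alone held 84, 31 and 19 counts of Tspo, a chi-square per degree of freedom of 21.5 that lay above that of 92.5% of genes.

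Markers of other cells moved along the stages too. The 10 neutrophil markers summed to 2828 to 3496 CPM in replicates 1, 2, 3 and 5 of ERY-V and to 1.51 to 117 CPM in its other 3 libraries, against 1.86 to 186 CPM in ERY-IV. In those other 3 ERY-V libraries Tspo was at 13.5, 51.5 and 93.6 CPM, below the lowest ERY-IV library at 121 CPM. The sums ran up to 2136 CPM in ERY-II, 1228 CPM in ERY-III and 813 CPM in ERY-VI. The 2 ERY-VI libraries with 0 and 1 counts of Tspo had neutrophil sums of 489 and 813 CPM, and the other 2 had 0.560 and 17.2 CPM.

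**Figure D1:**
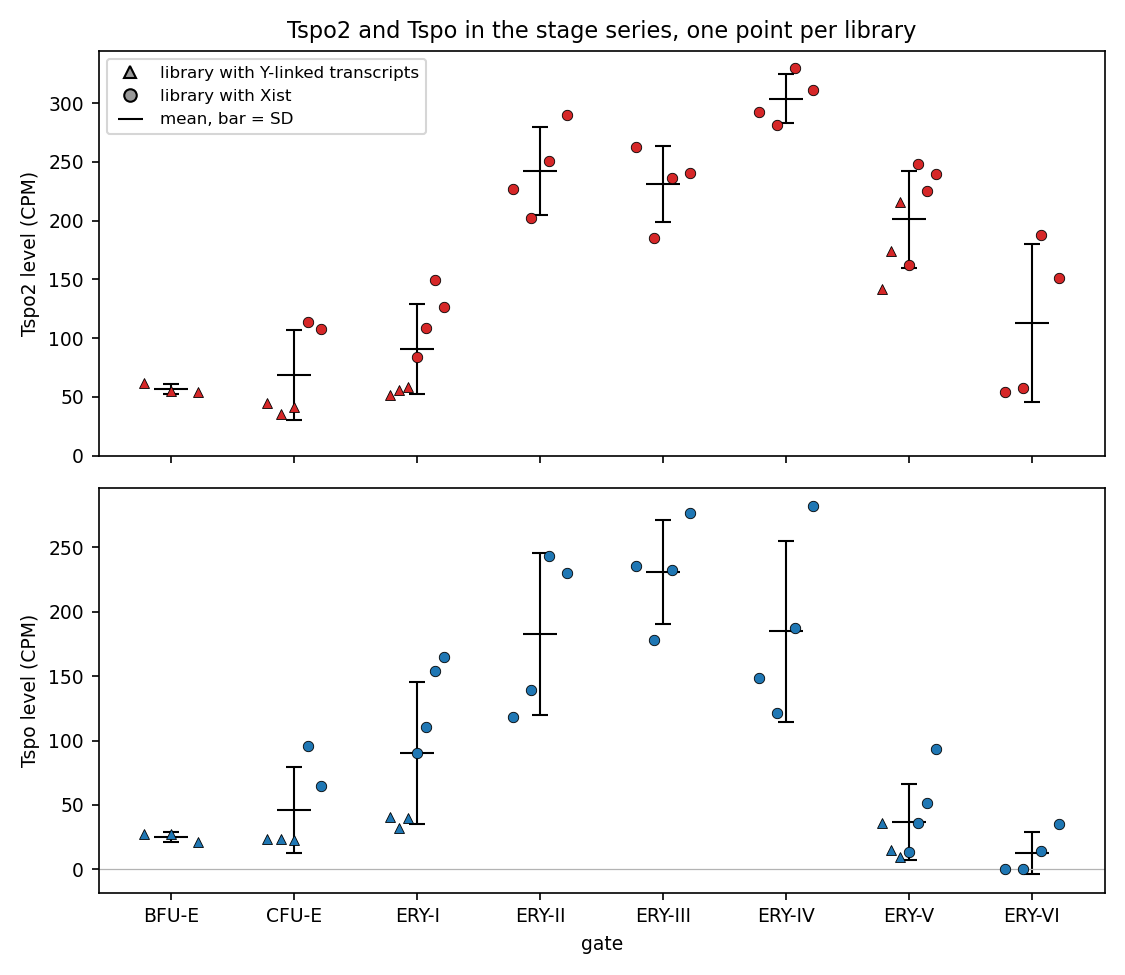
Level in CPM of Tspo2 (upper panel) and Tspo (lower panel) in each of 38 stage libraries by gate, with mean and SD bars, triangles for libraries with Y-linked transcripts and circles for libraries with Xist. Tspo2 lies between 142 and 330 CPM in every library of ERY-II to ERY-V, while Tspo is at 93.6 CPM or less in all ERY-V and ERY-VI libraries.

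Fold changes between neighbouring gates came from edgeR fits over all genes tested, scaled by TMM, which sets the bulk of genes equal rather than the library totals. In ERY-II against ERY-I the log2 fold change ± SE was 2.79 ± 0.44 for Tspo2 and 2.39 ± 0.59 for Tspo. This was the largest TMM-scaled value of either gene among the 7 steps. In ERY-IV against ERY-III it was 1.02 ± 0.30 for Tspo2 and 0.35 ± 0.42 for Tspo. In CFU-E against BFU-E it was 0.43 ± 0.45 for Tspo2 and 1.02 ± 0.57 for Tspo, and in ERY-I against CFU-E 0.85 ± 0.46 for Tspo2 and 1.46 ± 0.62 for Tspo. ERY-III against ERY-II had -0.31 ± 0.31 for Tspo2 and 0.10 ± 0.40 for Tspo, and the ranges of both genes overlapped there. The last 2 steps had 0.48 ± 0.43 and 0.64 ± 0.41 for Tspo2 and -1.22 ± 0.66 and -0.45 ± 0.96 for Tspo, in ERY-V against ERY-IV and in ERY-VI against ERY-V.

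The scaling decided the direction in the last steps. Library totals in place of TMM moved the median log2 fold change of all genes tested by -0.13 in CFU-E against BFU-E, -0.35 in ERY-I against CFU-E, -1.32 in ERY-II against ERY-I, 0.17 in ERY-III against ERY-II, -0.57 in ERY-IV against ERY-III, -0.79 in ERY-V against ERY-IV and -1.90 in ERY-VI against ERY-V. In the knockout series they moved it by 1.30 for ERY-V-VI, 0.16 for ERY-III-VI and -0.12 for ERY-I-II. In CPM Tspo2 was lower in ERY-V than in ERY-IV and lower in ERY-VI than in ERY-V. With library totals in place of TMM its log2 fold changes were -0.59 and -0.85 for these steps, against 0.48 and 0.64 with TMM. Globin genes took 57.2 to 71.1% of counts in ERY-VI libraries and 17.1 to 58.9% in ERY-V libraries, against 21.9 to 43.6% in ERY-IV libraries. Without globins in the totals Tspo2 averaged 463 CPM for ERY-IV, 348 for ERY-V and 321 for ERY-VI, still lower at each step. With TMM over all stage libraries the averages of these 3 gates were 497, 531 and 551 CPM. For Tspo the ERY-IV against ERY-III step had the opposite sign with library totals (-0.32). Its lower level in ERY-V than in ERY-IV had the same direction under both scalings and was -2.34 with library totals. In bulk libraries, fewer cells with a transcript and less of it per cell cannot be told apart.

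The early steps were tied to the library sets. Tspo2 averaged 40.6 ± 4.85 CPM in the Y-linked CFU-E libraries (SD, n = 3) and had 114 and 108 CPM in the 2 Xist ones. Tspo averaged 23.0 ± 0.44 CPM in the same 3 Y-linked libraries and had 64.8 and 95.7 CPM in the 2 Xist ones. BFU-E holds no Xist library. Within the Y-linked libraries CFU-E against BFU-E gave a log2 fold change of -0.41 for Tspo2 and -0.08 for Tspo, so the direction of both turned. ERY-I against CFU-E kept its direction in each set, with 0.56 for Tspo2 in both the Y-linked and the Xist libraries, and 0.84 and 1.18 for Tspo. In the same gate the Y-linked ERY-I libraries had a summed level of 10 neutrophil markers of 14047 to 14437 CPM, against 0.409 to 1277 CPM in the Xist ones. The part of these markers in the result was not tested. ERY-II against ERY-I in the Xist libraries alone gave 2.36 for Tspo2 and 1.83 for Tspo.

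The balance of the 2 genes is free of the library total, since both are read in the same library. Pooled BFU-E libraries held 2.24 counts of Tspo2 per count of Tspo, CFU-E 1.55, ERY-I 1.03, ERY-II 1.23, ERY-III 0.995, ERY-IV 1.64, ERY-V 5.99 and ERY-VI 10.6. Set per base of transcript, the ratio was 1.96 for BFU-E, 0.871 for ERY-III, 5.24 for ERY-V and 9.26 for ERY-VI. The genes were thus nearest to even in ERY-I to ERY-III. All 7 ERY-V libraries, at 2.56 to 22.9, lay above the highest of ERY-IV, at 2.32, and the 3 ERY-VI libraries with any count of Tspo had 4.33, 12.9 and 122.

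**Figure D2:**
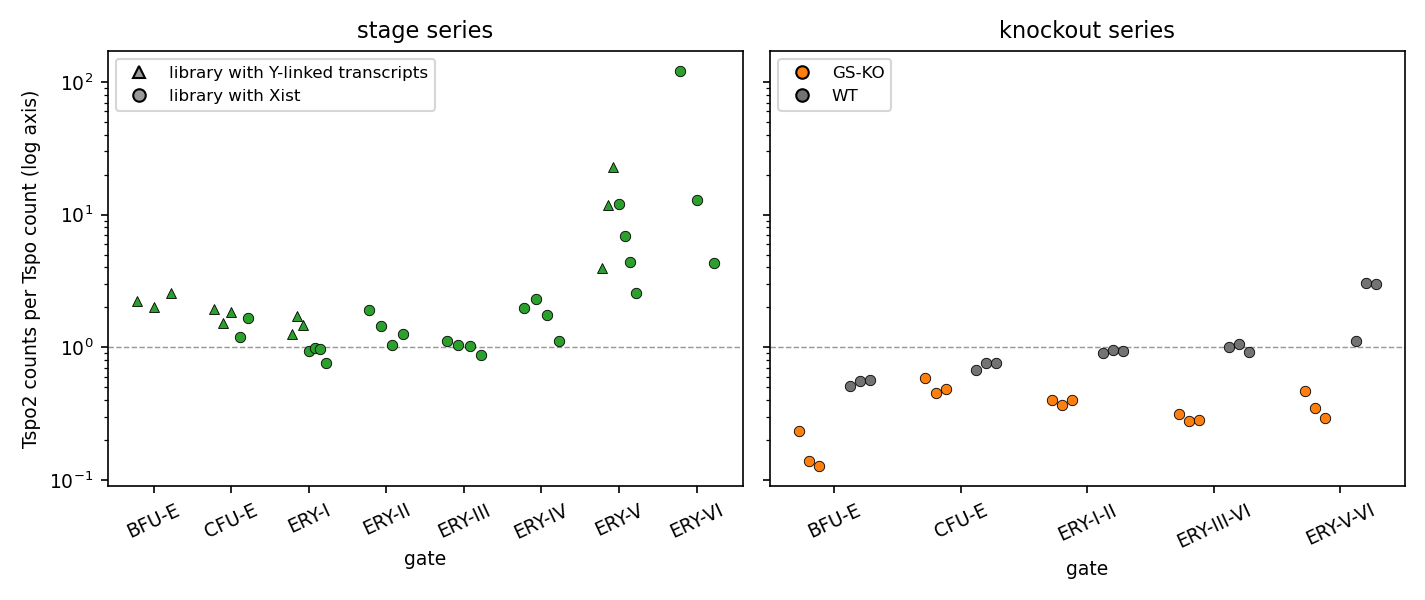
Counts of Tspo2 per count of Tspo in each library on a log axis, by gate, for the stage series (left; triangles Y-linked, circles Xist) and the knockout series (right; GS-KO orange, WT grey), with a dashed line at 1. The ERY-VI library with 0 counts of Tspo has no ratio and is left out; in every gate the 3 GS-KO ratios lie below the 3 WT ratios.

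The knockout series set GS-KO against WT within each gate. Glul, the glutamine synthetase gene, was read first as a check of the labels. It averaged 98.8 ± 2.41 CPM in GS-KO BFU-E against 122 ± 2.91 in WT BFU-E, and 36.01 ± 1.39 in GS-KO CFU-E against 86.0 ± 3.16 in WT CFU-E (SD, n = 3 each, here and below). GS-KO ERY-I-II had 14.9 ± 1.92 CPM against 110 ± 5.02 in WT ERY-I-II, and GS-KO ERY-III-VI 19.2 ± 2.91 against 159 ± 7.44 in WT ERY-III-VI. In the last gate it was 23.3 ± 0.88 CPM in GS-KO ERY-V-VI against 254 ± 12.2 in WT ERY-V-VI. It fell in all 5 gates (edgeR adjusted p under 0.05), by 0.29 on the log2 scale in BFU-E and by 4.73 in ERY-V-VI. The difference was smallest in BFU-E, where Glul was 1.23-fold lower.

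Tspo2 was lower in every GS-KO library than in every WT library of the same gate. Differences between the genotypes were common, with 24% to 55.9% of all genes tested at an edgeR adjusted p under 0.05, depending on the gate. The share of all genes whose libraries separate by genotype was not counted, so this separation does not set Tspo2 apart. In BFU-E it had 44, 25 and 25 counts, or 4.89, 3.36 and 3.28 CPM, in GS-KO, and 15.3, 14.4 and 14.5 CPM in WT. In CFU-E it had 11.7, 9.34 and 9.87 CPM in GS-KO and 16.3, 15.6 and 15.4 CPM in WT. The gap in CFU-E was the smallest of the 5 gates, at 1.56-fold, against 3.73-fold in BFU-E.

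In ERY-I-II Tspo2 stood at 14.6, 15.02 and 14.3 CPM in GS-KO and 34.6, 28.7 and 27.5 CPM in WT. In ERY-III-VI it stood at 15.2, 13.1 and 15.5 CPM in GS-KO and 48.5, 49.7 and 45.0 CPM in WT. In ERY-V-VI it stood at 16.4, 10.04 and 11.8 CPM in GS-KO and 39.5, 56.8 and 58.6 CPM in WT. From CFU-E on, all GS-KO libraries lay between 9.34 and 16.4 CPM whatever the gate, while WT libraries went up with maturity to ERY-III-VI.

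The log2 fold changes ± SE of Tspo2 in GS-KO were -1.90 ± 0.19 for BFU-E, -0.64 ± 0.12 for CFU-E, -0.92 ± 0.14 for ERY-I-II, -1.86 ± 0.12 for ERY-III-VI and -3.33 ± 0.23 for ERY-V-VI. With library totals the last was -2.03, and the sign was negative in every gate under each scaling. Genes with a lower fold change than Tspo2 numbered 3 of 11356 tested for BFU-E, 66 of 10859 for CFU-E and 66 of 9954 for ERY-I-II. They numbered 3 of 9981 for ERY-III-VI and 5 of 9403 for ERY-V-VI. With both directions counted, 4.46% of genes had a larger change for BFU-E, 11.75% for CFU-E and 11.77% for ERY-I-II. The share was 14.05% for ERY-III-VI and 5.33% for ERY-V-VI. Tspo2 was chosen by its levels in these same libraries, so its rank does not show that it stands out. The order of the 10 group means had WT ERY-V-VI and WT ERY-III-VI at the top, which overlapped, and GS-KO BFU-E at the bottom, which overlapped with no other group next to it.

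**Figure D3:**
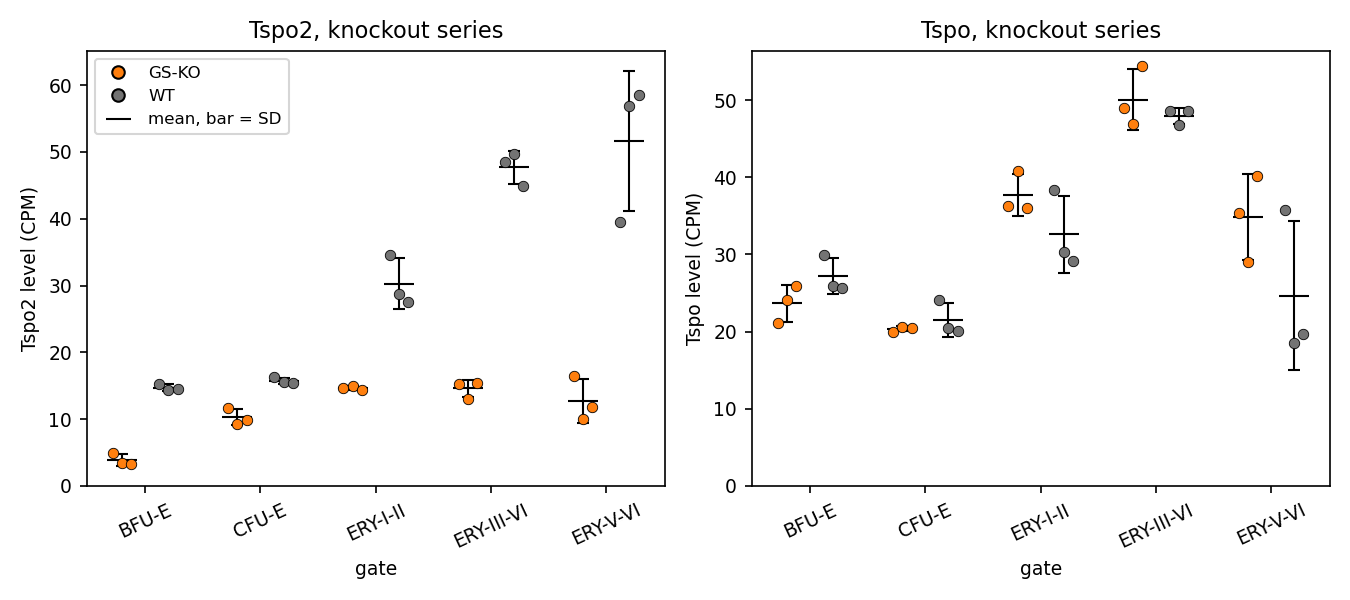
Level in CPM of Tspo2 (left) and Tspo (right) in each of 30 knockout-series libraries, GS-KO (orange) left of WT (grey) in each gate, with mean and SD bars. GS-KO libraries of Tspo2 stay at or below 16.4 CPM in all gates and below WT in each; for Tspo the genotypes overlap in all 5 gates.

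In CPM of library totals Tspo did not separate the genotypes. With TMM over all knockout-series libraries they did not overlap in any gate. GS-KO was then higher in ERY-I-II, at 34.8 to 39.3 CPM against 26.3 to 34.6 in WT, and lower in the other gates. ERY-III-VI had 53.5 to 62.6 CPM in GS-KO and 70.9 to 73.5 in WT. The share of all genes that separate under this scaling was not counted. By library totals Tspo had 21.1, 24.1 and 25.9 CPM in GS-KO BFU-E and 29.9, 25.9 and 25.7 CPM in WT BFU-E. In CFU-E it had 19.99, 20.6 and 20.5 CPM in GS-KO and 24.1, 20.5 and 20.04 CPM in WT. In ERY-I-II it had 36.3, 40.8 and 35.97 CPM in GS-KO and 38.4, 30.3 and 29.2 CPM in WT. The 2 genotypes overlapped in each of these gates. In ERY-III-VI it had 48.9, 46.9 and 54.4 CPM in GS-KO and 48.6, 46.8 and 48.5 CPM in WT. In ERY-V-VI it had 35.3, 29.0 and 40.2 CPM in GS-KO and 35.8, 18.5 and 19.7 CPM in WT, and the first WT library stood among the GS-KO ones.

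The log2 fold changes ± SE of Tspo were -0.18 ± 0.11 for BFU-E, -0.083 ± 0.098 for CFU-E, 0.34 ± 0.11 for ERY-I-II, -0.097 ± 0.094 for ERY-III-VI and -0.80 ± 0.26 for ERY-V-VI. Its ERY-V-VI value has the opposite sign to its CPM, where GS-KO averaged 34.9 ± 5.59 and WT 24.6 ± 9.63 (SD, n = 3 each). With library totals the fold change there was 0.50, and in ERY-III-VI it was 0.064. No direction can therefore be given for Tspo in these 2 gates. Globins held 7.69 to 7.82% of counts in GS-KO ERY-V-VI and 19.6 to 19.8% in WT ERY-V-VI.

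**Figure D4:**
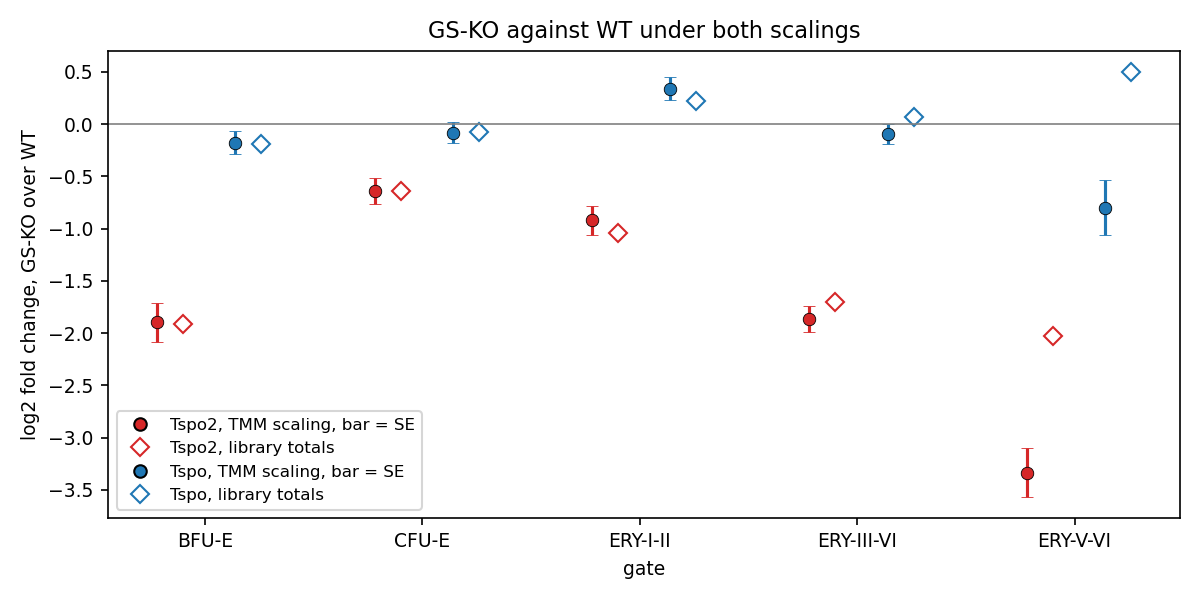
Log2 fold change of GS-KO over WT for Tspo2 (red) and Tspo (blue) in 5 gates, with filled circles for TMM scaling (bars are SE) and open diamonds for library totals. Tspo2 is below 0 in every gate under both scalings, at -3.33 and -2.03 in ERY-V-VI; Tspo is at -0.80 and 0.50 there.

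Read against Tspo in the same library, Tspo2 was lower in GS-KO in every gate. Pooled counts of Tspo2 per count of Tspo were 0.166 in GS-KO BFU-E and 0.546 in WT BFU-E, 0.492 in GS-KO CFU-E and 0.729 in WT CFU-E, and 0.388 in GS-KO ERY-I-II and 0.931 in WT ERY-I-II. They were 0.295 in GS-KO ERY-III-VI and 1.005 in WT ERY-III-VI, and 0.347 in GS-KO ERY-V-VI and 2.05 in WT ERY-V-VI. The 2 genotypes were furthest apart in the last gate on this measure. Read per 1000 CPM of the erythroid markers other than globins, Tspo2 stood at 2.32 ± 0.55 CPM in GS-KO BFU-E and 10.5 ± 0.27 in WT BFU-E, and at 5.39 ± 0.65 in GS-KO CFU-E and 8.64 ± 0.18 in WT CFU-E (SD, n = 3). It stood at 0.813 ± 0.02 in GS-KO ERY-I-II and 2.33 ± 0.29 in WT ERY-I-II, at 0.550 ± 0.05 in GS-KO ERY-III-VI and 1.56 ± 0.07 in WT ERY-III-VI, and at 0.463 ± 0.12 in GS-KO ERY-V-VI and 1.06 ± 0.21 in WT ERY-V-VI. The genotypes did not overlap on this measure in any gate, and how many other genes would separate on it was not counted.

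Markers of other cells moved with genotype. The 10 neutrophil markers summed to 7055 to 7131 CPM in GS-KO BFU-E against 26.7 to 36.4 in WT BFU-E, and to 4332 to 4406 in GS-KO CFU-E against 26.1 to 29.0 in WT CFU-E. They summed to 6202 to 6313 CPM in GS-KO ERY-I-II against 108 to 116 in WT ERY-I-II, to 9960 to 10045 in GS-KO ERY-III-VI against 253 to 255 in WT ERY-III-VI, and to 13428 to 13583 in GS-KO ERY-V-VI against 610.0 to 654 in WT ERY-V-VI. Ngp and Mpo, proteins of neutrophil granules, were among the most abundant, and 1 of the 10 markers was at 0 in WT BFU-E. The 12 macrophage markers in the table summed to 424 to 434 CPM in GS-KO BFU-E against 10.3 to 12.2 in WT BFU-E. The summed erythroid markers other than globins were 1653 to 1657 CPM in GS-KO BFU-E against 1385 to 1406 in WT BFU-E, and 27436 to 27676 in GS-KO ERY-V-VI against 48096 to 49101 in WT ERY-V-VI. They were 1906 to 1917 CPM in GS-KO CFU-E against 1806 to 1837 in WT CFU-E, 17970 to 18056 in GS-KO ERY-I-II against 12968 to 13023 in WT ERY-I-II, and 26348 to 26630 in GS-KO ERY-III-VI against 30329 to 30785 in WT ERY-III-VI. The erythroid sums were thus higher in GS-KO in the 3 earlier gates and lower in the last 2. The part of the neutrophil and macrophage markers in the results on Tspo and Tspo2 was not tested.

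Other genes of the translocator's surroundings were counted from a list of 76, of which 72 are in the tables. A gene is said to have risen or fallen where its Benjamini-Hochberg adjusted p in the edgeR fit over all genes tested was under 0.05, and the share of all genes tested that met this rule is given beside each count. The list holds 5 ligands (Dbi and other acyl-CoA binding proteins), 13 partners of TSPO at the mitochondrial membrane, 13 genes of heme synthesis and breakdown, 12 of mitochondrial and heme transport, and 29 of cholesterol synthesis and handling. In CFU-E against BFU-E 29 of 69 tested rose and 6 fell, or 50.7%, beside 37.3% of all genes. The list's median log2 fold change was 0.38, against -0.01 over all genes tested. Uros, an enzyme of heme synthesis, had 61.1 ± 31.7 CPM in CFU-E and 11.9 ± 1.77 in BFU-E (log2 fold change 2.52 ± 0.47, edgeR adjusted p = 0.0038). Tmem14c, which carries a heme precursor into the mitochondrial matrix, had 312 ± 167 CPM in CFU-E and 75.6 ± 3.07 in BFU-E (edgeR adjusted p = 0.0060). With each triplicate summed to 1 library neither call remained and 2 of the list's genes were called. Abcg1, a cholesterol exporter, had 0.854 ± 0.43 CPM in CFU-E and 32.1 ± 0.95 in BFU-E (edgeR adjusted p = 2.4e-05).

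In ERY-I against CFU-E 23 of 69 rose and 13 fell, 52.2% beside 46.4% of all genes, with a median of 0.30 against 0.05 over all genes. Heme genes rose in 9 of 13 cases and fell in 0, with Alas2 at 1588 ± 539 CPM in ERY-I and 10.5 ± 1.21 in CFU-E (log2 fold change 7.69 ± 0.45, edgeR adjusted p = 8.7e-07). Fech had 1281 ± 439 CPM in ERY-I and 269.6 ± 36.3 in CFU-E, and the mitochondrial iron importer Slc25a37 had 1461 ± 517 CPM in ERY-I and 39.8 ± 9.77 in CFU-E. Partners went the other way, with 1 of 12 higher and 7 lower. Vdac2, a channel of the outer membrane, had 130.0 ± 41.9 CPM in ERY-I and 299 ± 95.6 in CFU-E (edgeR adjusted p = 0.015), and Fdx1, which feeds electrons to mitochondrial steroid enzymes, had 2.20 ± 1.18 CPM in ERY-I and 10.5 ± 2.17 in CFU-E (edgeR adjusted p = 9.3e-04).

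In ERY-II against ERY-I 22 of 69 rose and 12 fell, 49.3% beside 45.3%, with a median of -0.18 against -0.35 over all genes. With library totals 6 rose and 44 fell. Heme genes rose in 9 of 13 cases and fell in 1 (4 and 3 with library totals), and transport genes rose in 7 of 12 and fell in 1 (2 and 5 with library totals). Of the partners 5 of 12 fell and 0 rose (11 and 0 with library totals). Alas2 had 8370 ± 1669 CPM in ERY-II and 1588 ± 539 in ERY-I (log2 fold change 3.75 ± 0.43, edgeR adjusted p = 8.1e-05). Atad3a, a mitochondrial membrane ATPase, had 1.52 ± 1.80 CPM in ERY-II and 40.2 ± 17.8 in ERY-I (log2 fold change -3.62 ± 0.73, edgeR adjusted p = 0.0021).

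Later steps had few calls in the main fits, which held no block. In ERY-III against ERY-II 0 of 60 were called with edgeR, beside 0.185% of all genes, 1 with DESeq2 and 7 with the replicate number as a block. In ERY-IV against ERY-III 9 of 58 rose and 3 fell, 20.7% beside 13.6%, and 3 rose and 6 fell with library totals. The block gave 22 calls there, and leaving out ERY-III replicate 1 gave 2. Acbd5, a peroxisomal acyl-CoA binding protein, had 62.5 ± 9.37 CPM in ERY-IV and 30.3 ± 5.08 in ERY-III (edgeR adjusted p = 0.0037). In ERY-V against ERY-IV 6 of 51 rose and 5 fell, 21.6% beside 8.83% (2 and 10 with library totals), and 1 was called without ERY-IV replicate 1. In ERY-VI against ERY-V 4 of 38 rose and 2 fell, 15.8% beside 7.83% (1 and 17 with library totals), with Alas2 at 31061 ± 4212 CPM in ERY-VI and 19363 ± 3410 in ERY-V (edgeR adjusted p = 0.0019). Abcb10, a mitochondrial transporter, had 27.8 ± 24.7 CPM in ERY-VI and 406 ± 173 in ERY-V (log2 fold change -2.22 ± 0.39, edgeR adjusted p = 0.0031).

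In GS-KO BFU-E 17 of the 70 tested genes rose and 4 fell, 30% beside 24% of all genes, with a median of 0.12 against -0.01. Alas2 had 94.8 ± 5.56 CPM in GS-KO and 3.18 ± 0.17 in WT (log2 fold change 4.90 ± 0.12, edgeR adjusted p = 7.5e-37). Alas1, the form of the enzyme used outside the erythroid line, had 97.8 ± 3.96 CPM in GS-KO and 40.3 ± 1.66 in WT. Soat1, which esterifies cholesterol, had 24.8 ± 2.34 CPM in GS-KO and 1.11 ± 0.10 in WT (edgeR adjusted p = 2.3e-24). The cholesterol list as a whole had 6 of 29 higher and 0 lower. Globins took 0.077 to 0.080% of counts in GS-KO BFU-E and 0.0011 to 0.0015% in WT BFU-E, and the neutrophil markers were higher in GS-KO as well. The part of other cells in the changes of this gate and of the gates below was not tested.

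In GS-KO CFU-E 11 of 70 rose and 12 fell, 32.9% beside 29.4%, with a median of 0.0081 against 0.0039. Of the 13 heme genes 7 fell and 3 rose. Alas2 again rose, with 77.6 ± 2.65 CPM in GS-KO and 5.13 ± 0.36 in WT (edgeR adjusted p = 9.8e-25). Dbi, the ligand, had 27.9 ± 1.96 CPM in GS-KO and 21.1 ± 3.33 in WT (log2 fold change 0.41 ± 0.10, edgeR adjusted p = 0.0019). In GS-KO ERY-I-II 19 of 67 rose and 11 fell, 44.8% beside 40.4%, with a median of 0.02 against -0.01, and 14 rose and 22 fell with library totals. Of the partners 6 of 12 fell under both scalings. Vdac1, another channel of the outer membrane, had 146 ± 2.49 CPM in GS-KO and 202 ± 2.27 in WT (edgeR adjusted p = 1.8e-09), and Tmem14c had 364 ± 12.3 CPM in GS-KO and 522 ± 11.6 in WT (edgeR adjusted p = 2.7e-19).

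In GS-KO ERY-III-VI 22 of 67 rose and 22 fell, 65.7% beside 55.9%, with a median of 0.09 against 0.05, and 29 rose and 17 fell with library totals. Heme genes fell in 8 of 13 cases and rose in 3 (7 and 5 with library totals). Transport genes fell in 9 of 12 and rose in 1 (8 and 1 with library totals). Among those that fell was the glycine carrier Slc25a38, with 152 ± 6.05 CPM in GS-KO and 184 ± 7.02 in WT (edgeR adjusted p = 9.9e-11). Cholesterol genes rose in 11 of 27 cases and fell in 3, and partners rose in 6 of 11 and fell in 0. Dbi had 11.3 ± 1.16 CPM in GS-KO and 1.44 ± 0.40 in WT (log2 fold change 2.73 ± 0.31, edgeR adjusted p = 4.6e-11). Slc25a4, an ADP/ATP carrier of the inner membrane, had 9.20 ± 1.18 CPM in GS-KO and 1.22 ± 0.88 in WT (edgeR adjusted p = 5.6e-09).

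In GS-KO ERY-V-VI 10 of 65 rose and 20 fell, 46.2% beside 42.9%, with a median of -0.02 against 0.15. With library totals in place of TMM 50 rose and 7 fell. Heme genes fell in 9 of 13 cases and rose in 1 with TMM, but rose in 8 and fell in 3 with library totals, so that no direction can be given for the heme list in this gate. Alas2 had 7767 ± 32.0 CPM in GS-KO and 22357 ± 405 in WT (log2 fold change -2.82 ± 0.02, edgeR adjusted p = 5.6e-23), and Fech had 4209 ± 105 CPM in GS-KO and 8793 ± 216 in WT (edgeR adjusted p = 5.6e-20). Dbi had 13.02 ± 3.85 CPM in GS-KO and 0.757 ± 0.26 in WT (edgeR adjusted p = 0.0015), and Alas1 had 105 ± 9.03 CPM in GS-KO and 4.002 ± 2.18 in WT (edgeR adjusted p = 3.7e-08). Alas2 and Fech thus fell under both scalings in the gate where Tspo2 was 10.1-fold lower with TMM, while Dbi and Alas1 rose. The neutrophil marker sums given above rise in the same GS-KO libraries, and their part in these changes was not tested.

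The genes with the course most like each member were found by Pearson's r of log2(CPM + 1) over the 38 stage libraries, among 8442 genes with a mean of at least 5 CPM. The points share gates, depth and globin load, so r is a description. For Tspo2 they were Ctsf, a lysosomal protease (r = 0.90), Mpc2, a subunit of the mitochondrial pyruvate carrier (0.90), Nt5c3, a nucleotidase of red cells (0.88), 1600020E01Rik (0.88) and Ppp1r15a, a regulator of the stress phosphatase (0.88). Over the 30 knockout libraries their r with Tspo2 was lower, between 0.58 and 0.60. For Tspo they were Abcg2, an exporter of porphyrins and drugs (0.93), Tom1l1 (0.93), Nqo1, a quinone reductase (0.92), 1190002F15Rik (0.91) and Mpst, a mercaptopyruvate sulfurtransferase (0.91). Over the knockout libraries r with Tspo was 0.75 for Abcg2, 0.82 for Tom1l1 and 0.42 for Nqo1. Tspo2 and Tspo themselves had r = 0.59 over the stage libraries and 0.27 over the knockout libraries.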

How the data were processed

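RNA of flow-sorted erythroid cells from mouse bone marrow was sequenced in 68 libraries, per the labels with a low-input kit that keeps strand. The deposited values were whole-number counts of reads per gene, in 1 table of 38 libraries and 1 of 30 with the same 24059 gene rows. The tools were STAR 2.5.2b, mm10 as the build and HTSeq, per the submitters' processing notes. Neither the gene annotation nor the strand setting is given in the sources used here. Every column of both tables was used.

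Both genes, the lists and the comparisons were chosen with earlier results of these data known. Each of 12 comparisons (7 neighbouring stages, 5 gates of GS-KO against WT) had its own edgeR 4.0.16 fit (R 4.3.3) on its own libraries, with filterByExpr (minimum count 10, minimum total 15), TMM scaling, the quasi-likelihood F test and Benjamini-Hochberg adjustment over all genes tested, with a threshold of 0.05. SEs were had by dividing a log2 fold change by the root of its F. Tests were made on the counts as deposited, and the 2 tables were never joined in a fit. Levels are CPM of library totals, as mean ± SD. Named beside both genes were Glul, markers, the 5 genes with the highest r for each, and from the lists Dbi, Vdac1, Vdac2, Alas1, Alas2, Fech, Slc25a38 and Tmem14c, or called members with the 2 largest fold changes of a role in each direction. The values of 1 listed gene are not reported here. Of 76 listed genes, Tspoap1, Flvcr1, Flvcr2 and Sc4mol have no row, and neither have the markers Adgre1 and Siglecf.

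Alternatives were DESeq2 1.42.0, RLE factors, library totals, globins left out, no filter, the replicate number as a block, libraries of 1 set, and each library left out. Summing each triplicate to 1 library was added after seeing the data. Same-numbered libraries deviated together in ERY-I and CFU-E (lowest correlation 0.32), ERY-III and ERY-II (0.52) and ERY-IV and ERY-III (0.30). This pairing was seen in these data and is not in the labels. The main fits did not use it, and the block was an alternative only. In simulated counts, the fit found 14.1% of log2 changes of 1 and 59.8% of those of 2 for ERY-II against ERY-I (10026 genes, 0% of calls false). It found 82.7% and 98.0% for GS-KO against WT ERY-III-VI (9742 genes, 9.69% false). The simulation changed only a small part of the genes, evenly up and down, and held no library sets. In the data 45.3% and 55.9% of genes were called in these comparisons, so the simulated shares may not hold there. Sequences came from GENCODE M21 and RefSeq, aligned with Biopython 1.88.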

Additional observations from a re-analysis of the deposited data

How the results depend on the processing

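Tspo2 was lower in GS-KO than in WT in all 5 gates under every setting tried. Tspo in GS-KO against WT ERY-V-VI changed sign, at 0.50 with library totals against -0.80 with TMM. Of the named genes of the lists and Glul, 2 calls were lost, both in CFU-E against BFU-E with triplicates summed, and 0 when single libraries were left out. Depth limits Tspo in ERY-VI (0 to 57 counts) and Tspo2 in GS-KO BFU-E (25 to 44 counts). GS-KO cannot be told apart from the neutrophil marker sums that go with it. Summing the triplicates of GS-KO and WT leaves 1 library each, which gives a fold change and no test.

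With library totals, the log2 fold change of Tspo2 was 1.42 and that of Tspo 1.02 in ERY-II against ERY-I, -0.071 for Tspo2 in ERY-III against ERY-II, 0.39 and -0.32 for both genes in ERY-IV against ERY-III, -0.59 and -2.34 in ERY-V against ERY-IV, -0.85 for Tspo2 in ERY-VI against ERY-V, -1.70 and 0.064 in GS-KO ERY-III-VI, and -2.03 for Tspo2 in GS-KO ERY-V-VI. The genes called were then 7421, 0, 634, 411 and 2219 in the 5 later stage steps and 7580 in GS-KO ERY-V-VI, and the listed genes called were 18 in ERY-VI against ERY-V and 57 in GS-KO ERY-V-VI.

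With the replicate number as a block, Tspo2 and Tspo were at -0.41 and -0.059 in CFU-E against BFU-E. They were at 3.55 and 3.48 in ERY-II against ERY-I, and at -0.24 and -2.80 in ERY-V against ERY-IV. Same-numbered libraries did not pair in these steps, with correlations of -0.020 to 0.020, -0.64 to 0.70 and -0.21 to 0.26. In ERY-II against ERY-I and ERY-V against ERY-IV the block set Y-linked libraries beside Xist ones. Its values there cannot be told apart from the difference between the library sets. Genes called were 7342 in CFU-E against BFU-E, 778 in ERY-III against ERY-II, 1824 in ERY-IV against ERY-III and 940 in ERY-V against ERY-IV. Listed genes called were 7 in ERY-III against ERY-II and 22 in ERY-IV against ERY-III. In the 5 gates of GS-KO against WT, where same-numbered libraries deviated together with correlations of 0.02 or less, the block moved no count past 1.5 times.

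In the Y-linked libraries alone Tspo2 was at -0.41 and Tspo at -0.077 in CFU-E against BFU-E, with 7303 genes called, and 9091 genes and 57 listed genes were called in ERY-I against CFU-E. In the Xist libraries alone Tspo2 was at 0.99 in ERY-V against ERY-IV, with 406 genes and 5 listed genes called, and ERY-VI against ERY-V had 59 and 2. With triplicates summed, Tspo2 was at 0.77 in ERY-V against ERY-IV, genes called were 105, 3088, 315 and 75 in CFU-E against BFU-E, ERY-I against CFU-E, ERY-V against ERY-IV and ERY-VI against ERY-V, and listed genes called were 2 in the first and 5 in the third of these. DESeq2 called 286, 1184 and 889 genes in ERY-III against ERY-II, ERY-V against ERY-IV and ERY-VI against ERY-V, and 1 and 12 listed genes in the first and last. RLE factors and leaving out globins each called 0 genes in ERY-III against ERY-II, where edgeR called 14. Without a filter on low counts 1018 genes were called in ERY-V against ERY-IV, and Tspo2 was at 0.18.

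Leaving out 1 library gave 2291 to 4315 genes and 23 to 34 listed genes called in CFU-E against BFU-E, 0 to 0 genes in ERY-III against ERY-II, 521 to 927 and 2 to 10 in ERY-IV against ERY-III, 127 to 971 and 1 to 14 in ERY-V against ERY-IV, and 182 to 510 genes in ERY-VI against ERY-V. Tspo2 then ran from -0.50 to 0.090 in ERY-III against ERY-II, 0.83 to 1.20 in ERY-IV against ERY-III, 0.085 to 0.64 in ERY-V against ERY-IV and -2.13 to -1.80 in GS-KO BFU-E, and Tspo from -0.20 to 0.53 in ERY-III against ERY-II.

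Levels scaled by TMM over all libraries of a table averaged 18.4, 25.4, 42.9, 291, 497, 531 and 551 CPM for Tspo2 in BFU-E, CFU-E, ERY-I, ERY-II, ERY-IV, ERY-V and ERY-VI, and 8.20, 316, 107 and 54.0 CPM for Tspo in BFU-E, ERY-IV, ERY-V and ERY-VI. In the knockout series Tspo2 averaged 2.38 in GS-KO and 9.36 in WT BFU-E, 6.93 in GS-KO and 11.04 in WT CFU-E, 14.1 in GS-KO ERY-I-II, 16.7 in GS-KO and 71.6 in WT ERY-III-VI, and 159 in WT ERY-V-VI. Tspo averaged 14.6 in GS-KO and 17.3 in WT BFU-E, 13.7 in GS-KO and 15.1 in WT CFU-E, 57.4 in GS-KO and 71.9 in WT ERY-III-VI, and 40.9 in GS-KO and 75.6 in WT ERY-V-VI. Without globins in the totals Tspo2 averaged 348, 308, 463, 348 and 321 CPM in ERY-II to ERY-VI, 15.1 in GS-KO ERY-I-II and 64.3 in WT ERY-V-VI, and Tspo 263, 310.0, 291, 67.9 and 33.3 CPM in ERY-II to ERY-VI and 50.4 in WT ERY-III-VI. Of the 5 genes most like Tspo2, 1 was again among the top 5 over the 8 gate means and 1 by Spearman's rho, and for Tspo 1 and 2. The causes of these shifts were not tested.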

Other observations

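WT libraries of the knockout series and libraries of the stage series carry the same gate names for BFU-E and CFU-E, and Tspo2 was lower in the WT libraries of both gates. Tspo2 averaged 14.7 CPM in WT BFU-E of the knockout series and 56.9 CPM in BFU-E of the stage series, a log2 ratio of mean CPM + 1 of -1.88 (n = 3 each). Among 9585 genes 9 had a ratio this low or lower, Tspo2 included, and 1.47% of genes differed by more than 2-fold. In CFU-E it averaged 15.7 CPM in WT and 40.6 CPM in the 3 Y-linked stage libraries, a log2 ratio on the same scale of -1.31, which 27 of 8979 genes reached. Tspo averaged 27.2 CPM in WT and 25.3 CPM in the stage series for BFU-E, and 21.5 CPM in WT and 23.0 CPM in the Y-linked stage libraries for CFU-E. The tables were deposited separately, so these levels were set side by side without a test, and they were looked at after the values of Tspo2 had been seen.

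The genes beside Tspo2 on chromosome 17 were also looked at after its values were seen. Unc5cl, which lies 2563 bases upstream of its start, averaged 14.7 CPM in GS-KO and 16.01 CPM in WT ERY-III-VI, and 12.2 CPM in GS-KO and 17.9 CPM in WT ERY-V-VI. Oard1, which lies 30672 bases beyond its end, averaged 53.9 CPM in GS-KO and 61.3 CPM in WT ERY-III-VI, and 36.9 CPM in GS-KO and 40.7 CPM in WT BFU-E. In ERY-V-VI Oard1 was higher in GS-KO, at 45.4 CPM against 22.5 CPM in WT. Apobec2, which lies nearer, 15214 bases beyond the end of Tspo2, averaged 0.944 CPM in GS-KO and 0.601 CPM in WT ERY-III-VI. In BFU-E Unc5cl was higher in GS-KO, at 5.12 CPM against 3.72 CPM in WT. In ERY-III-VI the gap in CPM between the genotypes was smaller for Unc5cl and Oard1 than for Tspo2, which averaged 14.6 CPM in GS-KO and 47.7 CPM in WT. A shared cause for these genes was not tested. Beside Tspo on chromosome 15, Mcat averaged 5.66 CPM in ERY-III and 23.6 CPM in BFU-E of the stage series, where Tspo averaged 231 CPM in ERY-III and 25.3 CPM in BFU-E. Ttll12, which lies nearer, 891 bases beyond the end of Tspo, averaged 180 CPM in BFU-E, 157 CPM in ERY-III and 20.8 CPM in ERY-V. It was thus lower in ERY-V than in ERY-III, as was Tspo, which averaged 36.4 CPM in ERY-V.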
